A study of Mus musculus with 35 samples.

Results

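Lungs of mice that had breathed 5 ppm styrene were compared with lungs of mice that had breathed 1 ppm, using 10 of the 35 arrays of a styrene dose series (0, 1, 5, 10, 20, 40 and 120 ppm, 5 arrays per dose). All animals were adult male wild type C57Bl/6 mice, bought from Taconic and held one to a cage for a single exposure of 6 h, and lungs were taken on the following morning. RNA of the whole lung was labelled with biotin and hybridised to Affymetrix HT MG-430 PM arrays, 1 array per sample, and the labels call the 5 samples of a dose biological replicates. The titles of 1 ppm replicate 5 and 5 ppm replicate 1 carry the same number, 15, so it is not known whether every array came from a mouse of its own. If the replicates were not separate mice, the p-values measure only the spread between these samples. The comparison covered 17097 genes, each read by its brightest probe set among those listed with exactly 1 gene. Levels are the deposited log2 signals, so a difference of 1 is a doubling, and values of single arrays are given in the order of replicates 1 to 5.

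Styrene is a volatile aromatic hydrocarbon that cytochromes of the bronchiolar club cells, CYP2F2 among them, oxidise to reactive products. Interferons are secreted proteins that act through cell surface receptors and transcription factors that bind the interferon-stimulated response element in front of antiviral genes. The induced proteins block viral translation, degrade RNA, sense foreign nucleic acid and tag proteins with ISG15. Genes of DNA replication are switched on by E2F factors as cells enter S phase, and in the adult lung few cells divide at any time.

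The sequence in front of 5 of the strongly risen interferon genes shows where such an element can be read, and 1 replication gene is added for the E2F site. No rule chose these genes, and all of them hold the site that is marked. Oasl1, Irf7, Oasl2 and Mx1, which rose more than Rsad2, are not shown, so the display does not tell how common the element is. Each sequence is the 250 bases before the gene start in RefSeq's promoter table (build GRCm38.p6), read 5' to 3' on the gene's strand. Capitals mark the response element, searched as 2 copies of GAAA with 2 bases of any kind between them on both strands, and for Mcm5 the E2F site, searched as TTT and CGC with 2 bases between them that are each G or C, on both strands. Ifit1 lies at chr19:34640639-34640888 (plus strand), Ifit3 at chr19:34583279-34583528 (plus strand), Apol9a at chr15:77411081-77411330 (minus strand), Cxcl10 at chr5:92348890-92349139 (minus strand), Rsad2 at chr12:26456453-26456702 (minus strand) and Mcm5 at chr8:75109259-75109508 (plus strand).
Ifit1: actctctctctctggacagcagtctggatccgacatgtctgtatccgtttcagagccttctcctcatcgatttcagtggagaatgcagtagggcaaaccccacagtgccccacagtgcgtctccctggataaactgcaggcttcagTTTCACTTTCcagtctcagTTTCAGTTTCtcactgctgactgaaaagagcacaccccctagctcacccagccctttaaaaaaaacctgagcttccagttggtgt
Ifit3: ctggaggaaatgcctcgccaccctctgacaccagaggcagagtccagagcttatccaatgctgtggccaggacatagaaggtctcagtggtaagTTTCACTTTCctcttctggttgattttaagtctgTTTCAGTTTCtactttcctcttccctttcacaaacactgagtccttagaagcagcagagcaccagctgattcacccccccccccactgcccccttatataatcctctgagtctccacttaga
Apol9a: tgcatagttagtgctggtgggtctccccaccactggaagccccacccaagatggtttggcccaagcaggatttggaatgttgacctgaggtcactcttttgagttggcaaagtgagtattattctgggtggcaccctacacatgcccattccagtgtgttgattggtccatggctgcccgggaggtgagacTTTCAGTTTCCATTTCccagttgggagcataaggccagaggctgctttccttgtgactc
Cxcl10: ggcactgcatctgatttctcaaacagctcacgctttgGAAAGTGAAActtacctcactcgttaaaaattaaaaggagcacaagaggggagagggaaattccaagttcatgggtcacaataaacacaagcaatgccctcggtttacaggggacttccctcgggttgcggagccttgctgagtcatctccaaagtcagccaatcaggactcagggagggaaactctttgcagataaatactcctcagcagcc
Rsad2: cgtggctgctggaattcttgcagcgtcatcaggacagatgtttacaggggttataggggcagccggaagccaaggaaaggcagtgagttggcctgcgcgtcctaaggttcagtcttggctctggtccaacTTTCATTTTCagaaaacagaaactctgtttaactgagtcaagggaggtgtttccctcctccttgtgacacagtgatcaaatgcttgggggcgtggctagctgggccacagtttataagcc
Mcm5: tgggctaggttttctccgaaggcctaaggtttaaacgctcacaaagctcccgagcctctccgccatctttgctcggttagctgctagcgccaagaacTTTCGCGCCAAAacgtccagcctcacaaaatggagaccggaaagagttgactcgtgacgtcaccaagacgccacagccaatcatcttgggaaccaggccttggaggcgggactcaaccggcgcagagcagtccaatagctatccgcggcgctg
In Ifit1 the pair of matches begins 104 and 85 bases before the start, and in Ifit3 156 and 122 bases before it. In Apol9a 2 matches overlap and begin 59 and 53 bases before the start. Cxcl10 and Rsad2 hold 1 match each, at 213 and 120 bases, and the overlapping matches of Mcm5 begin 153 and 149 bases before the start. Of the 13605 genes tested that have a promoter in the table, 421 (3.09%) held the response element in this window. Of the 56 genes of the 4 interferon lists described next that have a promoter, 22 (39.3%) held it. Among 29 replication genes with a promoter, 8 (27.6%) held an E2F site, against 422 of the 13605 (3.10%). A match is a run of letters and was not tested as a binding site.

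Between 1 and 5 ppm, 275 genes rose (1.61% of those tested) and 61 fell (0.357%), at an adjusted p below 0.05 in a linear model (limma) fitted to all 35 arrays with Benjamini-Hochberg adjustment. The rises were the larger changes as measured: 83 genes rose at least 2-fold, 23 at least 4-fold and 10 at least 8-fold, while 1 gene, Ldb3, fell at least 2-fold. Ldb3 lay below the nonspecific hybridisation controls, described next, on 4 of the 1 ppm arrays and all 5 ppm arrays, so that its size has no bound. In RNA of a whole organ, a change in the number of cells of a type and a change in RNA per cell cannot be told apart. The median log2 difference was 0.74 among the genes that rose, -0.45 among those that fell and 0.02 over all genes. The 5 arrays at 5 ppm all lay above the 5 at 1 ppm for 211 of the 275 risen genes and all below for 36 of the 61 fallen genes. Over all genes tested, groups lay apart in this way for 460 genes (2.69%) upwards and 145 (0.848%) downwards. At an unadjusted p below 0.05 there were 1284 genes above and 706 below, of the 17097 tested. The counts of list members at this p in later paragraphs are to be read beside these.

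**Figure D1:**
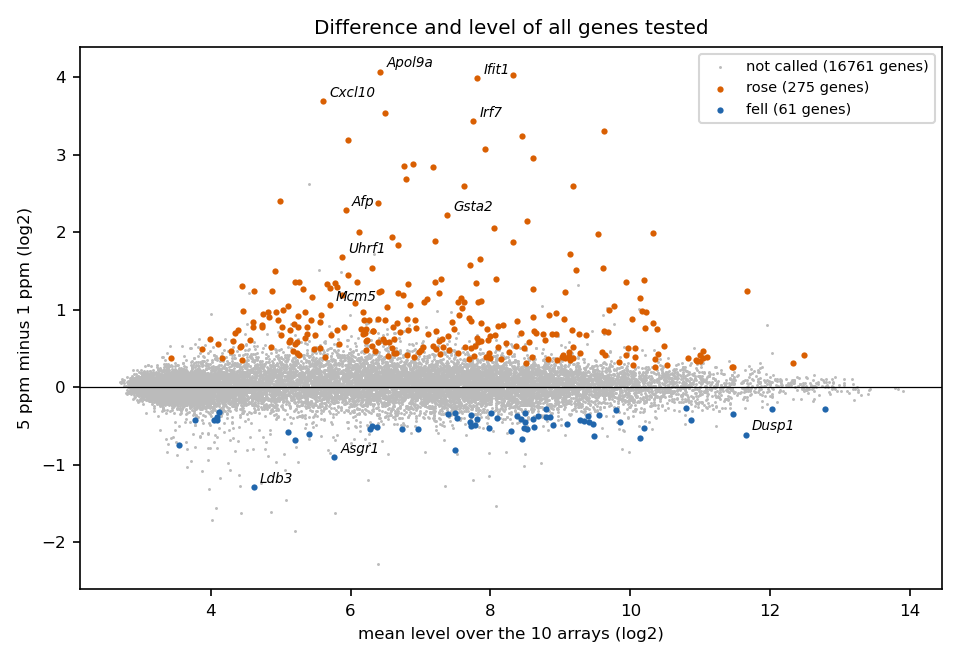
Difference between 5 and 1 ppm styrene (5 ppm minus 1 ppm, log2, mean of 5 arrays each) against the mean level over the 10 arrays (log2), 1 point per gene, for 17097 genes. The 275 genes that rose (orange) reach 4.07 above 0, whereas the 61 that fell (blue) reach 1.29 below it, and uncalled genes (grey) with differences below -1 lie there too.

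Signals of the nonspecific hybridisation controls show how bright a probe set can be without a matching transcript. The brightest of these controls read between 5.76 and 6.34 on the 1 ppm arrays and between 4.57 and 6.43 on the 5 ppm arrays. For 88 of the risen genes every 1 ppm array lay below this control, so only a bound on their size can be given. A fold is written as "at least" wherever 1 or more 1 ppm arrays lay below it, with each such array set to its own brightest nonspecific control, and log2 differences are as measured. For 7 of the risen genes and 6 of the fallen ones all 10 arrays lay below it. Signal quartiles, spike-in controls and 3' minus 5' control differences (9 array summaries) did not differ between the groups past the threshold (lowest adjusted p 0.724, two-sided exact permutation tests, 252 splits, smallest possible p 0.00794). Genes that define the labelled tissue were bright on all 10 arrays, with mean levels from 11.13 to 11.30 over 12 alveolar type 2 cell markers. Correlations between arrays over all genes ran from 0.972 to 0.992 across the groups and from 0.968 to 0.996 within them.

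The antiviral effectors of the IFIT, OAS and MX families had the largest median difference of the 49 gene lists. Of 19 measured members 17 rose and 0 fell (0 also at an unadjusted p below 0.05), with a median difference of 2.69, and in all 17 the 5 ppm arrays lay above the 1 ppm arrays. Together with the 3 other interferon lists described next (72 genes in all), 54 rose, 0 fell, and the median was 1.01. Ifit1, whose protein binds viral RNA that lacks the host cap methylation, read 4.85, 6.49, 4.78, 6.15 and 6.81 at 1 ppm and 9.79, 9.52, 9.60, 10.17 and 9.94 at 5 ppm. Its 1 ppm arrays spread over 2 log2 units, yet the dimmest 5 ppm array stood well above the brightest of them. The difference was 3.99 (SE 0.31, adjusted p 2.43e-11), which is at least 10.6-fold, since 3 of the 1 ppm arrays lay below the nonspecific control. Ifit3, its partner in the IFIT complex, was bright and tight: 7.74, 8.01, 7.64, 8.19 and 8.26 at 1 ppm against 11.51, 11.02, 10.89, 11.62 and 11.33 at 5 ppm. This was 9.89-fold (log2 difference 3.31, SE 0.20, adjusted p 4.05e-14), with no overlap. Ifit2 rose at least 3.60-fold (2.69, SE 0.42, adjusted p 6.42e-05; 3 of its 1 ppm arrays below the control), with 1 ppm arrays as scattered as those of Ifit1, from 4.45 to 6.42.

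The oligoadenylate synthetases make the second messenger that activates the RNA-degrading enzyme RNase L, and the OAS-like proteins are their relatives. Oas1g read 7.21, 6.79, 7.39, 7.20 and 7.04 at 1 ppm and 10.28, 10.22, 9.56, 10.37 and 10.00 at 5 ppm. It rose 7.80-fold (2.96, SE 0.15, adjusted p 3.03e-16). Oasl2 read 6.66, 6.81, 7.00, 6.79 and 6.87 at 1 ppm, a tight group, and 10.25, 10.04, 9.54, 10.39 and 10.15 at 5 ppm, a 9.47-fold rise (3.24, SE 0.17, adjusted p 1.54e-15). Oasl1 rose by 3.54 (SE 0.23, adjusted p 2.81e-13), which is at least 4.44-fold, since all its 1 ppm arrays (4.19 to 5.20) lay below the nonspecific control. Mx1, an antiviral GTPase, went from between 4.05 and 4.94 to between 6.85 and 8.17, at least 2.71-fold (3.19, SE 0.26, adjusted p 1.49e-10). Rsad2, which encodes viperin, an enzyme that makes a chain-terminating nucleotide, read 6.30, 6.96, 5.73, 6.52 and 6.42 at 1 ppm and 9.93, 9.20, 8.95, 9.80 and 9.42 at 5 ppm. Its rise was at least 7.88-fold (3.08, SE 0.27, adjusted p 5.26e-10). Zbp1, a sensor of left-handed nucleic acid, rose at least 4.22-fold (2.86, SE 0.20, adjusted p 4.43e-12). Cmpk2, the gene beside Rsad2 that supplies its nucleotide substrate, rose 4.41-fold (2.14, SE 0.26). The smallest difference of the list was that of Ifit1bl2 (0.39), which was not called and lay below the nonspecific control on all 10 arrays.

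**Figure D2:**
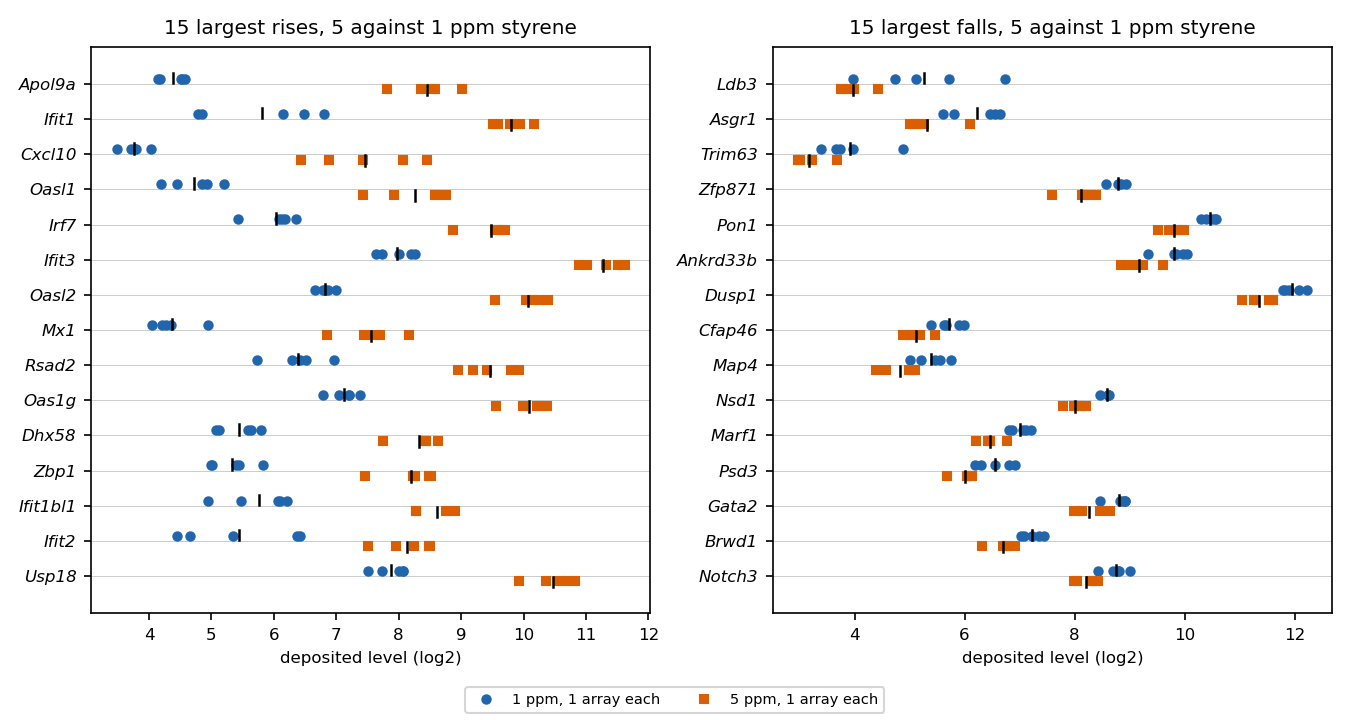
Deposited level (log2) on each 1 ppm array (blue circles) and each 5 ppm array (orange squares) for the 15 largest rises and the 15 largest falls past the threshold among genes without a provisional name, with black bars at the group means. All 15 risen genes have separate groups, with differences from 2.60 (Usp18) to 4.07 (Apol9a), while the falls span -0.53 to -1.29 and the groups of several, Ldb3 among them, overlap.

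Transcription factors and RNA sensors of the interferon pathway rose in part, 7 of 17 measured with a median of 0.40 and 0 that fell (0 also at an unadjusted p below 0.05). Irf7, the factor that amplifies type I interferon production, rose the most of them. It read 6.09, 5.42, 6.18, 6.35 and 6.13 at 1 ppm and 9.66, 9.54, 8.88, 9.71 and 9.57 at 5 ppm, a rise of at least 10.2-fold (3.44, SE 0.18, adjusted p 6.70e-16). The lowest array of each group stood apart, 1 ppm replicate 2 and 5 ppm replicate 3. Stat2 and Irf9, which encode transcription factors of type I interferon signalling, rose 2.55-fold (1.35, SE 0.18, adjusted p 6.79e-06) and 1.90-fold (0.93, SE 0.15, adjusted p 1.41e-04). Some RNA sensors rose too: Dhx58 at least 4.65-fold (2.88, SE 0.18), Ddx58 (RIG-I) 2.53-fold (1.34, SE 0.17, adjusted p 1.79e-06) and Ifih1 (MDA5) by 1.34 (SE 0.28, adjusted p 3.88e-03). Tlr3 and Tlr7, RNA sensors of the same list, were not among the called genes. For Ifih1 the 1 ppm arrays fell into a bright pair at 5.84 and 5.92 and 3 others between 4.44 and 4.81, which lay below the nonspecific control. The 5 ppm arrays ran from 6.00 to 6.82, and the call was lost when only the 1 and 5 ppm arrays were fitted (adjusted p 0.0549). Irf1, which answers chiefly to interferon-gamma, was not called, at 9.48 ± 0.20 (SD, n = 5) and 9.67 ± 0.07.

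The interferons themselves and their receptors gave no call in either direction: 0 of 10 measured were past the threshold, 0 had an unadjusted p below 0.05, and the median difference was 0.01. Ifnb1 read 3.12 ± 0.20 (SD, n = 5) at 1 ppm and 3.16 ± 0.10 at 5 ppm, and Ifng 3.09 ± 0.06 and 3.11 ± 0.07. All these values lay far below the nonspecific control. A fall, or a rise that stays below the control, was therefore not measurable on these arrays, and neither gene rose above the control. The receptor gene Ifnar1 was above it, at 7.39 ± 0.14 and 7.38 ± 0.10.

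Of the 27 measured genes of the ISG15 system and its companions 23 rose, 0 fell (0 also at an unadjusted p below 0.05), and the median difference was 0.99. Apol9a, an interferon-induced apolipoprotein L gene, had the largest difference of any named gene. It read 4.17, 4.53, 4.57, 4.15 and 4.51 at 1 ppm and 8.57, 8.54, 7.82, 9.01 and 8.36 at 5 ppm (4.07, SE 0.20, adjusted p 3.03e-16). The 1 ppm arrays all lay below the nonspecific control, so the rise is at least 5.09-fold. Usp18, the protease that removes ISG15 and dampens receptor signalling, read 8.07, 7.50, 8.01, 8.07 and 7.74 at 1 ppm and 10.83, 10.57, 9.93, 10.70 and 10.36 at 5 ppm, 6.07-fold higher (2.60, SE 0.20, adjusted p 2.35e-11). Trim30d rose at least 2.78-fold (2.38, SE 0.26), Rtp4 3.93-fold (1.97, SE 0.14) and Xaf1 3.29-fold (1.72, SE 0.15), each with separate groups. The provisionally named Gm9706, which RefSeq lists as a pseudogene and whose probe set may bind other transcripts, had the smallest p of all genes (4.03, SE 0.17, adjusted p 1.29e-17) and was picked for that after its values were seen.

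The GTPases that answer to interferon-gamma and attack vacuoles holding parasites and bacteria also rose, 7 of 9 measured, with 0 fallen (0 also at an unadjusted p below 0.05) and a median of 1.51. Iigp1 read 5.73, 7.11, 5.00, 5.95 and 7.87 at 1 ppm, a range of nearly 3 log2 units, and 8.99, 8.29, 8.62, 9.38 and 9.34 at 5 ppm. It rose at least 4.58-fold (2.59, SE 0.38, adjusted p 2.45e-05; 3 of its 1 ppm arrays below the control), without overlap. Tgtp1 was brighter and tighter, with 8.93, 9.06, 9.47, 9.34 and 9.88 at 1 ppm and 11.48, 11.11, 11.07, 11.50 and 11.44 at 5 ppm, a 3.96-fold rise (1.99, SE 0.23, adjusted p 3.91e-07). Igtp rose 2.85-fold (1.51, SE 0.23), Gbp3 at least 3.11-fold (1.88, SE 0.29) and Gbp2, read by a probe set that may also bind relatives, 1.67-fold (0.74, SE 0.15, adjusted p 2.43e-03).

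Across the 54 risen genes of the 4 interferon lists the same 5 ppm array was often the dimmest. Replicate 3 was the lowest of the 5 ppm arrays in 40 of the 54 genes and replicate 2 in 13, while replicate 4 was the highest in 27 and replicate 1 in 16. Their mean level ran from 8.33 (replicate 3) to 8.90 (replicate 4) at 5 ppm and from 6.79 to 7.15 at 1 ppm. These genes were called on the same arrays, so the gap between the doses is a description. Leaving out any 1 array left 17 of the IFIT, OAS and MX genes called.

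Chemokines rose in part. Cxcl10, which draws T cells and natural killer cells through CXCR3, read 3.78, 3.48, 3.80, 3.71 and 4.04 at 1 ppm and 8.46, 7.42, 6.43, 8.07 and 6.88 at 5 ppm. It was at least 2.53-fold higher (3.69, SE 0.39, adjusted p 4.33e-08), and its 5 ppm arrays were the most scattered of the 15 largest rises (SD 0.83). Cxcl9 followed at 0.98 (SE 0.26, adjusted p 0.0336) with overlapping groups. That call was lost on leaving out any 1 array other than 1 ppm replicate 4 and 5 ppm replicate 3 (adjusted p up to 0.110). No member of this CXCR3 list stood above the nonspecific control on all 10 arrays. On 5 ppm replicate 3 Cxcl9 read 4.62, against 6.03 for that control. Cxcl11 and the receptor gene Cxcr3 were not called, so 2 of 4 members rose. Among 13 neutrophil and monocyte chemokine genes 2 rose, both monocyte attractants. Ccl12 read 3.44, 3.28, 4.49, 3.83 and 3.92 at 1 ppm and 6.34, 6.67, 5.53, 6.46 and 5.97 at 5 ppm (2.40, SE 0.30, adjusted p 1.57e-06). No fold is given for Ccl12, because all 1 ppm arrays and 1 at 5 ppm lay below the nonspecific control. Ccl8 rose at least 2.18-fold (1.19, SE 0.25, adjusted p 4.64e-03). Ccl2 (0.81, adjusted p 0.15) and Ccl7 (0.94, adjusted p 0.082) were not called, although their groups did not overlap, and the neutrophil attractants Cxcl1, Cxcl2 and Cxcl5 had differences of 0.10, -0.09 and 0.16.

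Of 20 cytokine and acute phase genes 2 rose: Il33, an alarmin of barrier tissue, by 0.87 (SE 0.19, adjusted p 6.69e-03) and Lcn2, an iron-withholding protein of epithelium and neutrophils, by 0.77 (SE 0.14, adjusted p 1.18e-03). The Il33 call was lost when only the 1 and 5 ppm arrays were fitted (adjusted p 0.0560). Saa3, an acute phase serum amyloid, read 5.12 ± 0.28 (SD, n = 5) at 1 ppm and 6.60 ± 0.51 at 5 ppm without overlap, and just missed the threshold (adjusted p 0.0556). Il6 (0.23), Il1b (-0.16) and Tnf (0.16) were not called.

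MHC class I presentation rose modestly, with 8 of 12 measured genes called and a median of 0.42, while 0 of 9 class II genes were called (median 0.05). Nlrc5, the activator of class I genes, rose at least 1.87-fold (1.23, SE 0.26, adjusted p 5.12e-03; 4 of its 1 ppm arrays below the nonspecific control). The immunoproteasome subunit gene Psmb8 read 9.12, 9.21, 9.61, 9.22 and 9.11 at 1 ppm and 10.10, 10.21, 9.60, 9.99 and 10.01 at 5 ppm (0.73, SE 0.12, adjusted p 3.23e-04). Its groups touched, with 1 ppm replicate 3 high and 5 ppm replicate 3 low, and Psmb9 (0.69, SE 0.14) and Psmb10 (0.42, SE 0.10) had the same high 1 ppm array. The class I heavy chain gene H2-D1 was not called, at 12.05 ± 0.10 (SD, n = 5) and 12.03 ± 0.11. The count for this list moved with single arrays: 5 genes were called without 1 ppm replicate 1 or 2 or 5 ppm replicate 2, 4 or 5, and 4 without 1 ppm replicate 4 or 5 or when only the 1 and 5 ppm arrays were fitted.

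**Figure D3:**
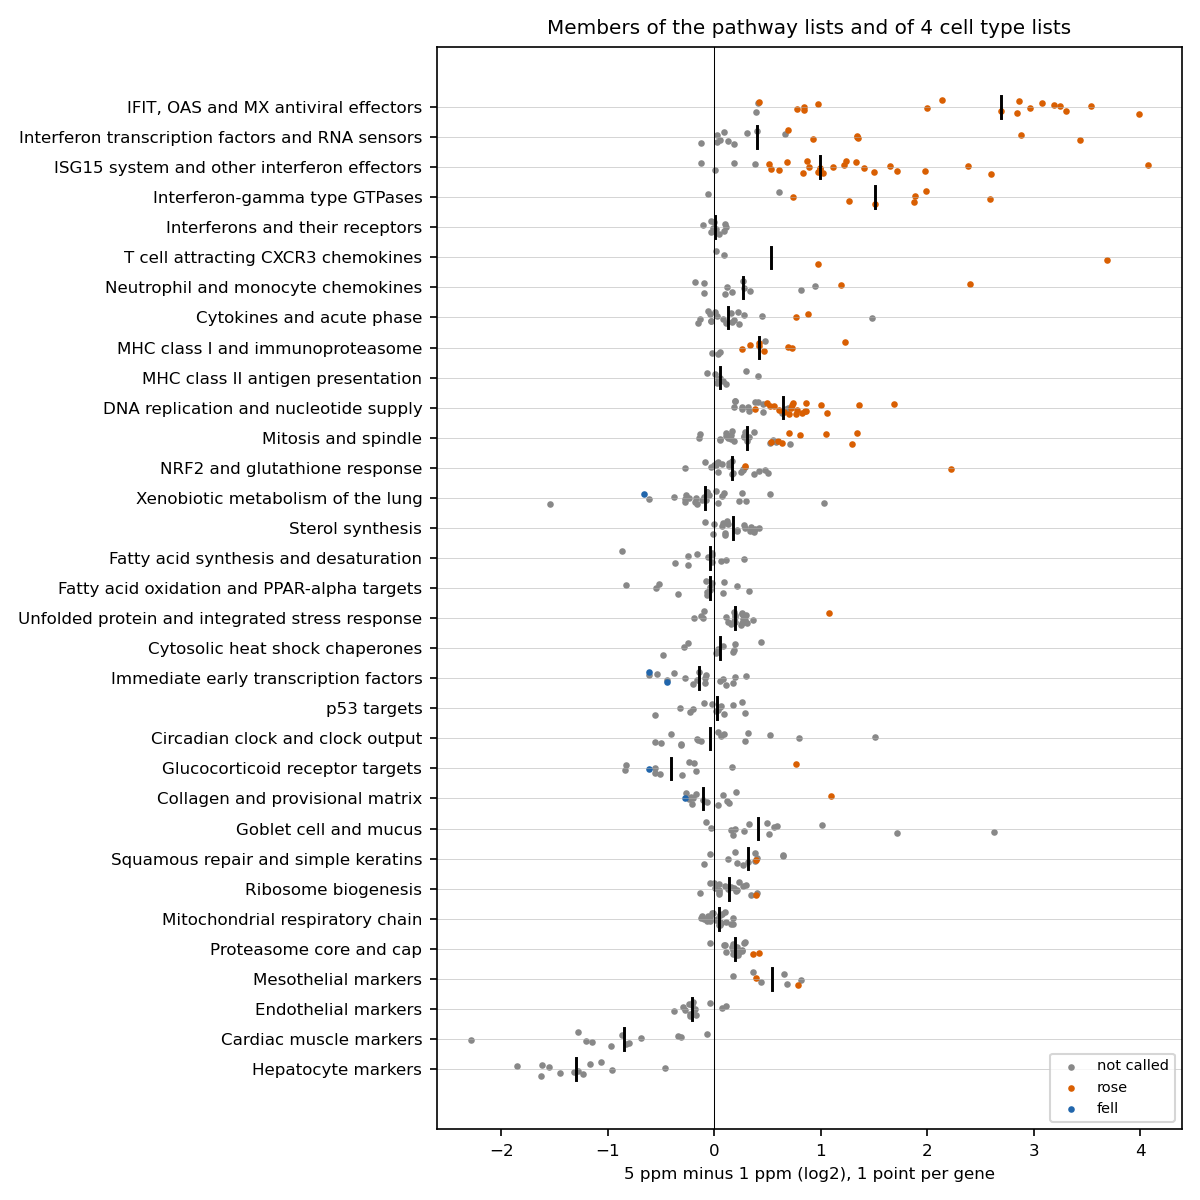
Difference between 5 and 1 ppm styrene (log2) of each measured member of the 29 pathway lists and of 4 cell type lists, 1 point per gene, orange for rose, blue for fell, grey for not called, with a black bar at the list median. The first 4 lists reach medians between 0.40 and 2.69, the replication list 0.65, and the cardiac and hepatocyte lists lie at -0.85 and -1.30 with no call.

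Genes of DNA replication and nucleotide supply made up the other large group. Of 34 measured members 20 rose and 0 fell, all 34 differences were above 0, and the median was 0.65. At an unadjusted p below 0.05 there were 28 above and 0 below. For 24 members all 5 ppm arrays lay above all 1 ppm arrays. Uhrf1, which directs maintenance of DNA methylation at the replication fork, read 5.14, 4.86, 5.26, 4.86 and 5.03 at 1 ppm and 6.75, 6.89, 6.30, 6.99 and 6.64 at 5 ppm (1.68, SE 0.17, adjusted p 2.58e-08, at least 1.52-fold). Its groups were more than 1 log2 unit apart. Mcm5, part of the replicative helicase, read 5.10, 5.18, 5.48, 5.18 and 4.93 at 1 ppm and 5.99, 6.33, 6.05, 6.51 and 6.27 at 5 ppm (1.06, SE 0.15, adjusted p 2.25e-05). No fold is given for it, since all its 1 ppm arrays and 5 ppm replicates 1 and 2 lay below the nonspecific control (6.02 and 6.43 on these 5 ppm arrays). Of the 6 measured genes of that helicase, Mcm2 (0.77), Mcm3 (0.70), Mcm6 (0.83) and Mcm7 (0.66) also rose, and Mcm4 (0.64, adjusted p 0.092) was not called.

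Enzymes of nucleotide supply moved with them. Tk1, the S phase thymidine kinase, rose by 1.36 (SE 0.20, adjusted p 2.36e-05) and Rrm2, the regulated subunit of ribonucleotide reductase, by 1.00 (SE 0.16, adjusted p 7.24e-05). Both lay below the nonspecific control on every 1 ppm array and on 3 of the 5 ppm arrays, so no fold is given. Fen1, which trims Okazaki fragments, rose at least 1.69-fold (0.86, SE 0.15), with 3 of its 1 ppm arrays below the control. Brighter than that were Lig1, which seals the fragments (1.66-fold; 0.73, SE 0.14), and the licensing factor gene Cdt1 (1.81-fold; 0.85, SE 0.13). Pcna, the sliding clamp, was bright and tight, with 10.51, 10.68, 10.65, 10.71 and 10.62 at 1 ppm and 10.93, 10.94, 11.09, 11.03 and 11.08 at 5 ppm. Its rise was small, 1.30-fold (0.38, SE 0.07, adjusted p 4.69e-04), without overlap.

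Genes of mitosis rose less often, 8 of 29 measured with a median of 0.31 and 0 fallen (16 above and 0 below at an unadjusted p below 0.05). Without 5 ppm replicate 5 the count was 5. Whether the 2 lists differ was not tested. Cdk1, the kinase that drives entry into mitosis, read 4.67, 5.11, 5.46, 5.40 and 5.16 at 1 ppm and 6.37, 6.42, 5.95, 6.79 and 6.73 at 5 ppm (1.29, SE 0.22, adjusted p 3.58e-04). All its 1 ppm arrays and 5 ppm replicates 2 and 3 lay below the nonspecific control (6.43 and 6.03 on these 5 ppm arrays), so no fold is given. Pbk (1.34, SE 0.19) and Birc5, which encodes survivin (1.05, SE 0.20), rose alongside it, and Top2a (0.81, SE 0.19, adjusted p 0.0170) lost its call without 1 ppm replicate 1 or 5 ppm replicate 4 or 5 (adjusted p up to 0.0777). None of the 29 genes stood above the nonspecific control on all 10 arrays, and Mki67 (-0.13, adjusted p 0.85) lay below it on every one.

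Of the 20 cell type marker lists 18 had no called member. Retnla, an alternatively activated macrophage and airway epithelial product that the club cell list holds, rose 2.36-fold (1.24, SE 0.17, adjusted p 6.38e-06), from between 10.86 and 11.20 to between 12.12 and 12.47. The other 10 club cell markers were not called. Monocyte and interstitial macrophage markers (10 genes, median 0.18), alveolar macrophage markers (13 genes, median 0.12), T cell markers (9 genes, median 0.10), natural killer cell markers (10 genes, median 0.14) and neutrophil markers (11 genes, median -0.10) gave 0 calls. At an unadjusted p below 0.05 they gave 1, 1, 2, 0 and 0 genes above and 0 below. Mesothelial markers were the second list with calls: Msln rose by 0.79 (SE 0.20, adjusted p 0.0300) and Krt19, which the keratin list shares, by 0.39 (SE 0.10, adjusted p 0.0326), and all 8 differences were above 0 (median 0.54). Both calls were lost without 1 ppm replicate 2 or 4 or 5 ppm replicate 2, 3 or 4 (adjusted p up to 0.143 and 0.125). Mesothelium covers the lung, and the mean level of its 8 markers ran from 7.24 to 7.83 at 1 ppm and from 7.82 to 8.57 at 5 ppm. The 5 ppm arrays 2 and 3 were the highest. Against clean air the median of these markers was -0.64 at 1 ppm and -0.11 at 5 ppm, 2 comparisons that share the air arrays.

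In the list of NRF2 targets and glutathione enzymes, which detoxify electrophiles, 2 of 24 measured genes rose. Gsta2, a glutathione transferase, read 6.29, 6.17, 6.90, 6.30 and 5.69 at 1 ppm and 8.82, 8.51, 8.58, 8.52 and 8.03 at 5 ppm, a rise of at least 4.37-fold (2.22, SE 0.24, adjusted p 7.68e-08). That probe set may also bind related transferases, and the gene's other probe set differed by 0.15 (SE 0.18) from a mean of 7.47, so the 2 probe sets of this gene disagree. Taldo1, a pentose phosphate enzyme, rose 1.22-fold (0.29, SE 0.08, adjusted p 0.0328) with overlapping groups, and lost its call without 1 ppm replicate 2, 4 or 5 or 5 ppm replicate 1, 2 or 4 (adjusted p up to 0.137). The classical targets Nqo1 (0.37), Hmox1 (0.17), Gclm (0.17), Gclc (0.51) and Srxn1 (0.25) were not called, and 9 of the 24 had an unadjusted p below 0.05 upwards and 1 downwards.

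Of 26 genes of xenobiotic metabolism 0 rose and 1 fell (0 above and 4 below at an unadjusted p below 0.05). Pon1, an esterase of lactones and organophosphates, read 10.56, 10.56, 10.30, 10.49 and 10.40 at 1 ppm and 9.99, 9.51, 9.87, 9.94 and 9.71 at 5 ppm, 1.58-fold lower (-0.66, SE 0.17, adjusted p 0.0280) and without overlap. The call was lost without 1 ppm replicate 1, 2 or 4 or 5 ppm replicate 2 or 5 (adjusted p up to 0.0935). Pon1 was also 1 of the 4 genes lower at 5 ppm than in clean air (194 were higher, 1.13%, and 4 lower, 0.0234%), the others being Cbs, Ldhb and Pax1. Of these, Pax1 lay below the nonspecific control on every 1 and 5 ppm array, and Cbs on 4 arrays of each of these groups. Cyp2f2, the styrene-oxidising club cell cytochrome, was not called: it read 13.36, 13.15, 13.27, 13.27 and 13.33 at 1 ppm and 13.18, 13.17, 13.05, 13.05 and 13.12 at 5 ppm (-0.17, SE 0.08, adjusted p 0.413). Only 1 ppm replicate 2 reached into the 5 ppm range, and these levels lie where the array may saturate. Scgb1a1, the main secretory protein of club cells, differed by -0.04 (SE 0.05, adjusted p 0.823) at a mean of 13.92. Cyp2e1, which also oxidises styrene, ranged from 6.53 to 9.88 at 1 ppm and from 6.03 to 8.31 at 5 ppm (-1.54, SE 0.80, adjusted p 0.461).

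The remaining pathway lists held few calls. Psat1, of serine synthesis, was the 1 riser among 22 genes of the unfolded protein and integrated stress response (at least 1.41-fold; 1.08, SE 0.20, adjusted p 7.71e-04). Timp1, an inhibitor of matrix proteases, rose 2.14-fold (1.10, SE 0.26, adjusted p 0.0161) among 15 collagen and matrix genes, of which Col4a2 fell (-0.27). The Timp1 call was lost without 1 ppm replicate 2, 1 ppm replicate 4 or 5 ppm replicate 4 (adjusted p up to 0.0672). In the proteasome list 2 of 22 rose, Psma5 (0.41) and Psma4 (0.36), with 21 differences above 0 and a median of 0.19. Leaving out 1 ppm replicate 3 raised that count to 3, it was 0 on leaving out 1 ppm replicate 2 or 5 or 5 ppm replicate 4, and 1 for any other single array. Nop56 rose (0.40, adjusted p 0.0279) as the 1 call among 20 ribosome biogenesis genes, and lost it without 1 ppm replicate 2, 4 or 5 or 5 ppm replicate 2 or 4 (adjusted p up to 0.104) and when only the 1 and 5 ppm arrays were fitted. In the glucocorticoid target list Lcn2 and Dusp1, described with other lists, were the only calls of 12 (median -0.41). The sterol synthesis (18 genes, median 0.17), heat shock (10, 0.06), p53 (14, 0.02), respiratory chain (23, 0.04) and circadian (16, -0.04) lists, and those of fatty acid synthesis (12, -0.04) and oxidation (15, -0.04), gave 0 calls, with 5, 0, 0, 0, 3, 1 and 1 genes above and 0, 0, 3, 0, 0, 1 and 3 below at an unadjusted p below 0.05. In the goblet cell list (14 genes, 0 calls, median 0.41) the mucus-processing gene Clca1 read 5.82, 10.24, 5.02, 6.70 and 5.81 at 5 ppm against 3.26 to 5.02 at 1 ppm, with replicate 2 far above the others (2.62, SE 0.83, adjusted p 0.109). Agr2, a disulfide isomerase of mucus-making cells, read 5.37 to 8.47 at 5 ppm and 4.21 to 6.71 at 1 ppm (1.72, SE 0.58, adjusted p 0.152).

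A few large rises lay in no list and were picked after their values were seen. Afp, alpha-fetoprotein, read 4.72, 4.87, 4.89, 5.49 and 3.95 at 1 ppm and 7.41, 7.25, 7.04, 7.11 and 6.55 at 5 ppm (2.29, SE 0.28, adjusted p 7.80e-07, at least 1.94-fold). Of 12 markers of hepatocytes, the cell type best known for it, 0 rose (0 also at an unadjusted p below 0.05). Their mean level was highest on 1 ppm replicate 2 (9.43) and all 12 differences were below 0, so a rise at 5 ppm could hardly show. The source of the Afp signal was not tested. Uchl1, a ubiquitin hydrolase known from neurons, read 5.83, 5.60, 5.95, 5.69 and 5.70 at 1 ppm and 7.77, 7.72, 7.80, 7.39 and 7.27 at 5 ppm (1.84, SE 0.13, adjusted p 2.68e-12, at least 2.78-fold). Misp, an actin bundling protein of mitotic cells, rose at least 1.94-fold (1.54, SE 0.17), and Wdr19, part of the transport machinery of cilia, 2.99-fold (1.58, SE 0.19, adjusted p 5.96e-07). Ciliated cell markers gave 0 calls of 12 (median 0.04, 0 in either direction at an unadjusted p below 0.05).

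The 61 genes that fell changed by little and their count moved with single arrays: it was 40 without 1 ppm replicate 1, 27 without 1 ppm replicate 4, 34 without 5 ppm replicate 3, 38 without 5 ppm replicate 4 and 26 without 5 ppm replicate 5. Of the 27 fallen genes named by the rule or for their values, 17 lost their call on leaving out at least 1 array. Dusp1, the phosphatase that switches off stress kinases, was the one that kept its call under every alternative. It read 12.22, 12.08, 11.82, 11.90 and 11.78 at 1 ppm and 11.60, 11.29, 11.26, 11.54 and 11.04 at 5 ppm (-0.61, SE 0.13, adjusted p 4.30e-03), 1.53-fold lower. Jun, a subunit of the AP-1 factor, read 10.11, 10.18, 9.94, 10.12 and 10.02 at 1 ppm and 9.83, 9.65, 9.54, 9.69 and 9.43 at 5 ppm (-0.45, SE 0.10, adjusted p 7.31e-03). Both groups of both genes lay apart, and they were the 2 fallen members among 19 immediate early genes (median -0.14; 7 below and 0 above at an unadjusted p below 0.05). Klf2 (-0.54, adjusted p 0.101) and Egr1 (-0.45, adjusted p 0.327) were not called.

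Zfp871, a zinc finger gene, read 8.85, 8.93, 8.57, 8.82 and 8.79 at 1 ppm and 8.27, 7.59, 8.19, 8.40 and 8.14 at 5 ppm, 1.60-fold lower (-0.68, SE 0.15, adjusted p 6.30e-03) without overlap. The mean of its probe sets differed by -0.44 and was not called (adjusted p 0.278). The same held for Ankrd33b (-0.63, or -0.22 with adjusted p 0.425 over its probe sets), Psd3 (-0.54, or -0.32 with 0.0887) and Brwd1 (-0.53, or -0.22 with 0.249). Single arrays ended other calls: Cfap46 (-0.60), below the nonspecific control on 9 of the 10 arrays, lost it on leaving out any of 8 arrays (adjusted p up to 0.144), Map4, a microtubule-binding protein gene (-0.57, also below it on 9 arrays), any of 5 (up to 0.114) and Marf1 (-0.55) either of 2 (up to 0.0560). Psd3 and Brwd1 also lost theirs on leaving out any of 5 and 4 arrays.

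Nsd1, a histone H3 methyltransferase, read 8.63, 8.61, 8.61, 8.61 and 8.46 at 1 ppm and 8.06, 7.98, 8.20, 7.79 and 8.03 at 5 ppm, 1.49-fold lower (-0.57, SE 0.10, adjusted p 2.43e-04). Its other, dimmer probe set differed by 0.08 (SE 0.12), and the mean of both gave an adjusted p of 0.246. Gata2, a factor of endothelial and blood cells, fell by 0.54 (SE 0.13, adjusted p 0.0194) and Notch3, a receptor of vessel wall muscle, by 0.53 (SE 0.12, adjusted p 0.0129), and Gata2 lost the call without 1 ppm replicate 1, 2 or 4 or 5 ppm replicate 3, 4 or 5 (adjusted p up to 0.0872) and Notch3 without 5 ppm replicate 3 or 5 (up to 0.0548). Picked after their values were seen, 3 T-box transcription factor genes fell, Tbx4 by 0.45 (SE 0.10, adjusted p 6.92e-03), Tbx3 by 0.37 (SE 0.08, adjusted p 9.75e-03) and Tbx2 by 0.41, which overlapped between the groups and lost its call without 1 ppm replicate 3, 4 or 5 or 5 ppm replicate 1, 3 or 5 (adjusted p up to 0.0957). Of the 12 measured genes named Tbx, the other 9 were not called, with 4 differences above 0 and 5 below. Other genes of vessels and mesenchyme picked in the same way, Foxf1 (-0.42), Notch4 (-0.38) and Robo4 (-0.39), lost their calls on leaving out any of 8, 4 and 5 arrays (adjusted p up to 0.114, 0.0880 and 0.141). The lipoprotein receptor gene Lrp1 fell by 0.48 (SE 0.10, adjusted p 2.84e-03) and Aldh2, which oxidises acetaldehyde, by 0.35 (SE 0.07, adjusted p 4.62e-03), each without overlap. Endothelial markers gave 0 calls of 14, with 7 below and 0 above at an unadjusted p below 0.05 and a median of -0.21. Their mean level ran from 10.16 to 10.38 at 1 ppm and from 9.99 to 10.12 at 5 ppm. Smooth muscle markers (8 genes, 0 calls, median -0.29, all 8 below 0, 2 below at an unadjusted p below 0.05) and fibroblast markers (12 genes, 0 calls, median -0.08, 9 below 0, 2 below at that p) also lay lower, with mean levels of 6.53 to 7.80 at 1 ppm and 6.52 to 7.51 at 5 ppm for the first and 8.39 to 8.75 and 8.42 to 8.56 for the second. Against clean air the smooth muscle median was 0.65 at 1 ppm and 0.30 at 5 ppm, so both doses lay above air. The endothelial median was 0.07 and -0.14 and the fibroblast median 0.10 and -0.01, all with the same air arrays. The part of endothelial, smooth muscle and fibroblast content in the falls was not tested.

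Markers of liver and of cardiac muscle varied strongly between single arrays, most of all at 1 ppm. The mean level of 12 hepatocyte markers was 5.58, 9.43, 3.87, 3.69 and 3.57 at 1 ppm and 3.81, 3.73, 3.64, 4.88 and 3.58 at 5 ppm, with Alb at 11.75 on 1 ppm replicate 2 and 7.01 on 5 ppm replicate 4. The mean level of 12 cardiac markers was 7.41, 5.43, 7.51, 6.68 and 9.01 at 1 ppm and 6.38, 6.19, 5.49, 7.03 and 6.44 at 5 ppm. Its highest array was 1 ppm replicate 5, where the atrial peptide gene Nppa read 11.95. On the log2 of summed signals the hepatocyte list ran from 7.21 to 13.60 at 1 ppm and from 7.25 to 8.99 at 5 ppm, and the cardiac list from 10.07 to 14.12 and from 10.05 to 12.11. Neither list had a called member, and at an unadjusted p below 0.05 they gave 0 and 4 genes below. Against clean air the hepatocyte median was -0.46 at 1 ppm and -1.87 at 5 ppm, and the cardiac median 0.73 and -0.11.

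**Figure D4:**
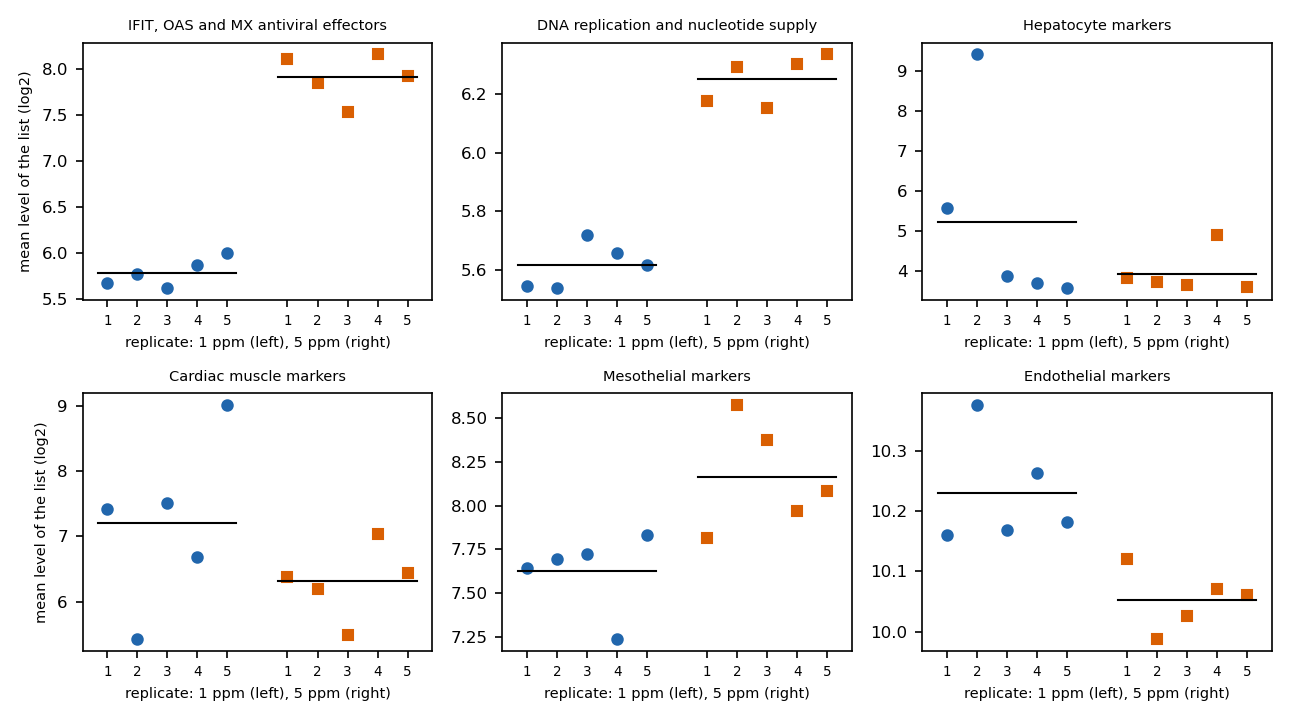
Mean level (log2) of 6 gene lists on each array, replicates 1 to 5 at 1 ppm (blue circles) and at 5 ppm (orange squares), with a black line at the group mean. The interferon effectors (5.62 to 6.00 against 7.54 to 8.16) and the replication genes (5.54 to 5.72 against 6.15 to 6.33) have separate groups, whereas hepatocyte markers peak on 1 ppm replicate 2 (9.43) and cardiac markers on 1 ppm replicate 5 (9.01).

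The 3 largest named falls hold 2 striated muscle genes and 1 gene known from liver. Ldb3, a protein of the Z disc of striated muscle, read 5.12, 3.97, 5.71, 4.74 and 6.74 at 1 ppm and 3.99, 3.79, 3.75, 4.42 and 3.90 at 5 ppm (-1.29, SE 0.33, adjusted p 0.0304). Its highest and lowest 1 ppm arrays were those of the cardiac list, and the mean of its 3 probe sets was not called (-0.67, adjusted p 0.180). Trim63, a ubiquitin ligase of striated muscle, was likewise highest on 1 ppm replicate 5 (4.88 against 3.39 to 3.98 on the others) and fell by 0.75 (SE 0.19, adjusted p 0.0289). Its 1 ppm arrays all lay below the nonspecific control (5.76 to 6.34 there), so the size of its fall has no bound. Asgr1, the hepatic asialoglycoprotein receptor gene, read 6.64, 6.46, 6.56, 5.81 and 5.61 at 1 ppm and 6.10, 5.25, 5.09, 5.00 and 5.16 at 5 ppm (-0.90, SE 0.23, adjusted p 0.0309). It lay below the nonspecific control on 1 ppm replicates 4 and 5 and on 5 ppm replicates 2, 3 and 5. At 1 ppm, replicates 4 and 5 were the lowest for both Asgr1 and the hepatocyte list, which was highest on replicate 2, and Asgr1 on replicate 1. At 5 ppm the hepatocyte list was highest on replicate 4, where Asgr1 was lowest. All 3 had overlapping groups. Ldb3 lost its call without 1 ppm replicate 3 or 5 or 5 ppm replicates 1, 2, 3 or 5 (adjusted p up to 0.117), Trim63 without the same 6 arrays (up to 0.109), and Asgr1 without 1 ppm replicate 1, 2 or 3 or 5 ppm replicate 2, 3, 4 or 5 (up to 0.108). The part of cardiac muscle or liver tissue in these falls was not tested.

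The step from 1 to 5 ppm was also set against its neighbours in the dose series, with a test of the difference between steps. The steps cover unequal widths of dose, and their sizes were compared without scaling to dose. A higher or lower step is therefore no sign by itself of a response out of proportion to dose. For 128 genes (0.749%) the step from 1 to 5 ppm was higher than the step from 0 to 1 ppm, and for 24 (0.14%) it was lower. With each array centred on its median these counts were 154 and 9. In total 152 genes were called, 86 without 1 ppm replicate 1 and 78 without 1 ppm replicate 4. No gene was called between 1 and 0 ppm (0 in each direction by limma, lowest adjusted p 0.105; 432 above and 758 below at an unadjusted p below 0.05). Both steps use the 1 ppm arrays, with opposite sign. Genes picked for a large rise from 1 to 5 ppm thus lean to a higher step in this test. Among the 19 IFIT, OAS and MX genes 12 had the higher step from 1 to 5 ppm and 0 the lower, among the 27 ISG15 genes 17 and 0, among 9 GTPases 6 and 0, and among 34 replication genes 7 and 0. For Irf7 the step difference was 3.51 (SE 0.31, adjusted p 1.47e-09), for Oas1g 2.98 (SE 0.25, adjusted p 1.10e-09) and for Mcm5 1.24 (SE 0.26, adjusted p 0.0130).

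The step from 5 to 10 ppm was lower than that from 1 to 5 ppm for 91 genes (0.532%) and higher for 20 (0.117%). These 111 calls became 58 without 1 ppm replicate 2, 59, 57, 51 and 54 without 5 ppm replicates 1, 2, 4 and 5, and 69 and 70 without 10 ppm replicates 1 and 2. Of the 19 IFIT, OAS and MX genes 9 had the lower later step and 0 the higher. Both of these steps use the 5 ppm arrays, with opposite sign. Genes picked for a large rise from 1 to 5 ppm therefore lean to a lower later step. Apol9a had means of 4.89 in air, 4.39 at 1 ppm, 8.46 at 5 ppm and 8.57 at 10 ppm, so its later step was lower by 3.97 (adjusted p 4.10e-09). Oas1g had means of 7.14, 7.12, 10.09 and 10.19, with a later step lower by 2.86 (adjusted p 4.10e-09). Between 5 and 10 ppm itself 257 genes rose (1.5%) and 537 fell (3.14%). Cxcl10 was among the risers, reaching 9.02 at 10 ppm (1.56 above 5 ppm, adjusted p 0.0137), and its steps did not differ past the threshold (-2.13, adjusted p 0.157). Gsta2 went from 6.27 at 1 ppm to 8.49 at 5 ppm, 8.27 at 10 ppm and 6.33 at 120 ppm. Mcm5 had means of 5.35, 5.17, 6.23 and 6.85 from air to 10 ppm and 7.64 at 120 ppm, and 0 of the 34 replication genes were called in this test in either direction.

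**Figure D5:**
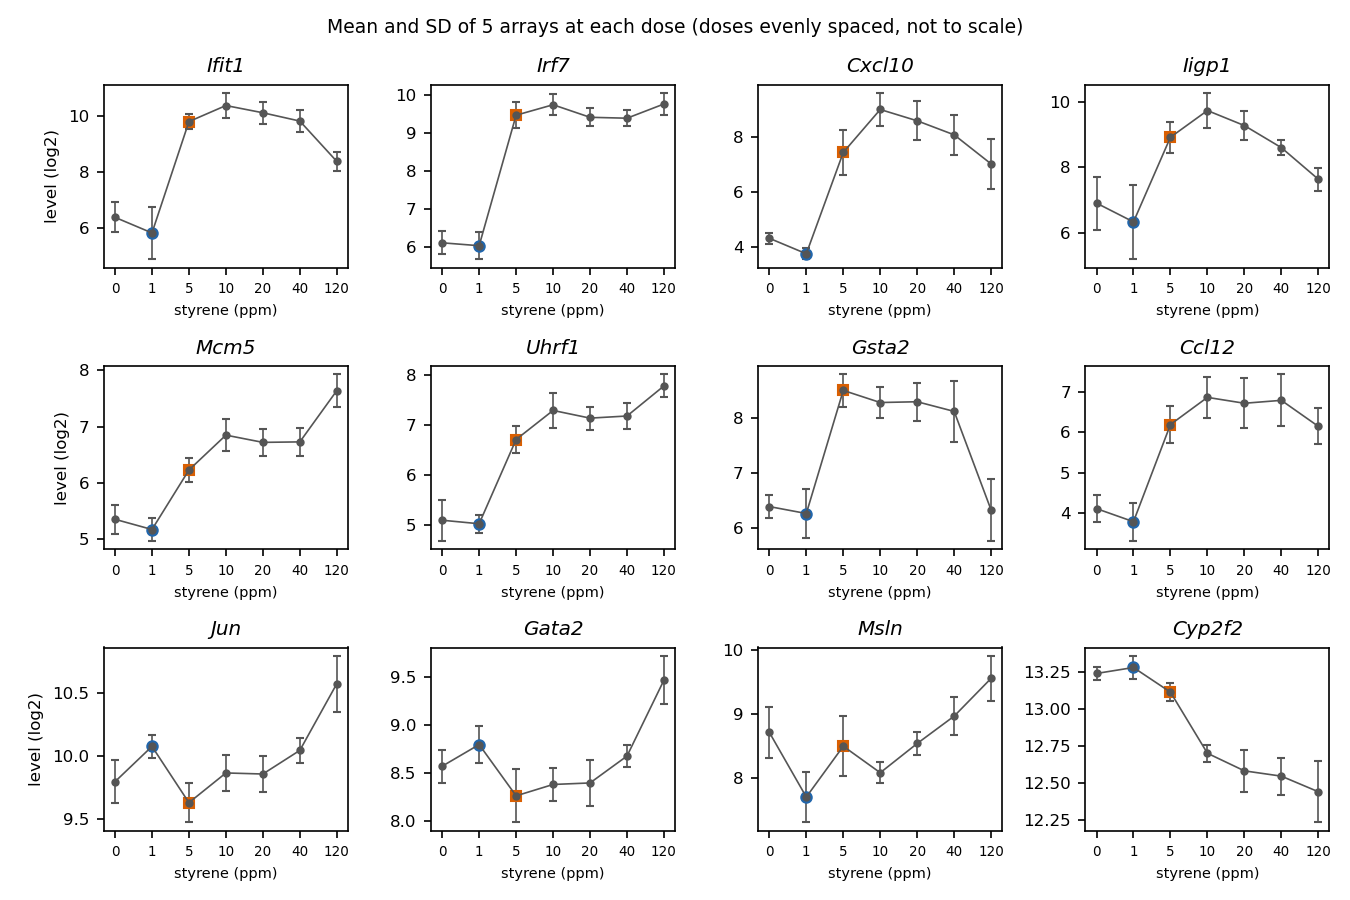
Mean level (log2, bars are the SD of 5 arrays) at each styrene dose for 12 genes, with 1 ppm in blue and 5 ppm in orange and the doses evenly spaced, not to scale. Gsta2 has its highest mean at 5 ppm (8.49), Ifit1 and Irf7 stand at 9.80 and 9.47 there against 10.38 and 9.75 at 10 ppm, Mcm5 and Uhrf1 go on to 7.64 and 7.79 at 120 ppm, and Jun, Gata2 and Msln have their 5 ppm means on the other side of clean air from their 1 ppm means or nearer to it.

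For some genes the place of the 1 ppm arrays relative to clean air bears on the difference. Jun had means of 9.80 in air, 10.07 at 1 ppm and 9.63 at 5 ppm, and Gata2 of 8.57, 8.80 and 8.26. Msln had means of 8.72, 7.71 and 8.50, so its 5 ppm mean was below that of clean air. Ldb3 had means of 4.23, 5.26 and 3.97. The medians over the 61 fallen genes were 0.24 for 1 ppm against air and -0.21 for 5 ppm against air. Over the 275 risen genes they were -0.15 and 0.67. These comparisons share arrays with the one that chose the genes and are given as values. Retnla had means of 10.51 in air, 11.05 at 1 ppm, 12.29 at 5 ppm and 13.05 at 10 ppm, and 1 against 0 ppm was not called (adjusted p 0.447).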

How the data were processed

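The authors deposited 1 table of log2 signals for the 35 arrays, and RMA and Partek are named for it in the submitters' processing notes, with no version. The table holds 45141 probe sets, of which 104 are controls. Of the other 45037, the platform annotation gave 28898 exactly 1 gene, 551 several genes and 15588 none. These were reduced to 17097 genes by keeping each gene's brightest probe set (mean of the 35 arrays), since 7180 genes had more than 1. Samples were grouped by the dose in their labels. The values were fitted in limma 3.58.1 (R 4.3.3) with 1 mean per dose on all 35 arrays (28 residual degrees of freedom), without a filter on dim genes, and p-values were adjusted over all genes. Tables were joined and array summaries tested in Python 3.11.15 with numpy 2.4.6 and pandas 2.3.3, and the fit was tested on simulated data. The number of arrays limits the precision.

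Up to 15 genes per direction with the largest differences past the threshold were named, leaving out provisional names, with up to 8 called members per pathway list and 4 per cell type list by smallest p, and Cyp2f2, Cyp2e1 and Scgb1a1. Genes named outside this rule were chosen after their values were seen, including uncalled ones. The comparison and the 49 gene lists were chosen with earlier results of these data known. Probe set filters, normalization, model settings, the replicate number as a block and each array left out in turn were tried as alternatives. Scan dates, plates and protein sequences were not used here.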

Additional observations from a re-analysis of the deposited data

Results flagged for a closer look

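In some groups of 5 arrays a single array stood apart from the other 4 by more of the whole range than Dixon's test allows at the 95% level. This held for 19 of 244 groups of named genes and 4 of 98 groups of list means, and chance gives about 1 in 20. At 5 ppm, replicate 3 was the low array for Irf7 (8.88), Dhx58 (7.75), Zbp1 (7.45), Xaf1 (9.64), Nlrc5 (6.41) and Cxcl9 (4.62), all genes that rose. At 1 ppm, replicate 3 was the high array for the immunoproteasome genes Psmb8 (9.61), Psmb9 (8.83) and Psmb10 (10.04) and for the mean levels of the MHC class II list (9.17) and the list of interferons and their receptors (6.52). Replicate 2 at 1 ppm was low for Irf7 (5.42) and Ifnar1 (7.15).

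Among the genes that fell, the array apart was 1 ppm replicate 5 for Gata2 (8.46) and Nsd1 (8.46), low in both, 5 ppm replicate 2 for Psd3 (5.67, low), 5 ppm replicate 5 for Col4a2 (10.46, low) and 5 ppm replicate 1 for Asgr1 (6.10, high). Scgb1a1 was high on 1 ppm replicate 1 (13.97) and Mki67 on 5 ppm replicate 5 (3.92). Alb (7.01) and the hepatocyte list (4.88) were high on 5 ppm replicate 4, and the erythroid list was low on 1 ppm replicate 5 (7.93).

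Probe sets that the annotation pairs with no gene or with several gave calls too, 70 higher and 167 lower at 5 ppm out of 16139, so that the balance of directions there was opposite to that among named genes. No transcript was assigned to them.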

How the results depend on the processing

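No named gene with a call changed sign under any of 22 alternatives, while the uncalled Ifnb1 (0.04, down to -0.02) and Ifnar1 (-0.01, up to 0.04) did. Of 77 named genes that rose, 57 kept the call throughout and 15 lost it when 1 array was left out, and of 27 that fell, 1 kept it and 17 lost it in this way. Leaving out 1 array gave 208 to 327 rising and 26 to 89 falling genes, against 275 and 61. With all probe sets 415 rose and 257 fell, with a fold of at least 1.5 182 and 10, with array weights 606 and 346, without the 120 ppm group 477 and 159. At an adjusted p below 0.1 117 fell, with arrays centred on their median 37, with only the groups compared 36, and without both arrays numbered 15 114. Of the 336 calls, 212 were shared with the fit of the 2 groups alone.

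The 152 genes whose step from 1 to 5 ppm differed from that from 0 to 1 ppm became 360 with all probe sets, 271 at an adjusted p below 0.1, 666 with array weights, 403 without 120 ppm and 78 to 156 leaving out 1 array. The 111 genes whose step from 5 to 10 ppm differed from that from 1 to 5 ppm became 201, 468, 65 (centred), 310, 55 (without both numbered 15) and 51 to 147, the first 2 and the fourth at an adjusted p below 0.1, with array weights and without 120 ppm. The causes were not tested. For the 9 array summaries 0 calls remained on leaving out 1 array (lowest adjusted p 0.5).

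With the replicate number as a block 334 genes rose and 96 fell, and the later comparison of steps gave 170. Same-numbered arrays at 1 and 5 ppm had correlations of their deviations of 0.22, -0.47, -0.49, -0.24 and 0.53, so the numbers were not taken to pair the samples. Dim genes limit these counts: 8996 genes had a mean above the brightest nonspecific control in a group of this comparison.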

Other observations

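Of the 275 genes that rose, 145 stood above the brightest nonspecific control on all 10 arrays. Of the 275, 104 lie in a pathway list. Other probe sets of the same gene were on the array for 109 of them, 160 in all, of which 140 differed in the same direction, 53 were called over all probe sets and 0 were called the other way. For the 61 that fell, 38 genes had 65 other probe sets, of which 55 differed in the same direction, 5 were called and 0 were called the other way.

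The response element was also counted in promoters outside the lists. It stood in 33 of 220 risen genes with a promoter (15%) and in 0 of 48 fallen genes, beside 3.09% of all. These shares are descriptions, since the motif was chosen with the risen genes known.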
